A study of Homo sapiens with 3 samples.

Results

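The sodium-potassium ATPase (sodium pump) genes described here were 5 of the 58735 genes in the count matrices: ATP1B1, ATP1B2 and ATP1B3, which encode beta subunits, and FXYD3 and FXYD5, which encode small regulators of the FXYD family. They were found by gene symbol, and all 5 were found in each of the 3 single-cell RNA libraries. The resistant TPF cinobufotalin library came from a subline of FaDu made resistant to TPF (paclitaxel, cisplatin and 5-fluorouracil) and given TPF with cinobufotalin. The resistant TPF library came from the same subline given TPF alone. The FaDu cinobufotalin library came from FaDu cells given cinobufotalin. FaDu is an established human squamous carcinoma line of the hypopharynx, written Fadu in the labels, and cinobufotalin is a bufadienolide, a steroid of toad venom. The labels state neither the doses and times of exposure nor whether the subline was 1 clone. Untreated cells of either line, and FaDu cells given TPF, were not analysed here.

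The sodium pump uses ATP to carry sodium out of the cell and potassium in, which keeps the gradients that drive many carriers and set the membrane potential. A catalytic alpha subunit does the transport, a glycosylated beta subunit is needed for folding and for delivery to the membrane, and an FXYD protein can bind the pair and tune its affinity for ions. Bufadienolides, like the digitalis steroids, bind the alpha subunit from outside and block the pump. Beta subunits of neighbouring cells can also adhere to each other at epithelial junctions.

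Each group was a lone library, so groups could not be tested against each other, and effects of library, cell line and treatment cannot be told apart. Levels are counts of unique molecular identifiers (UMIs) scaled to CPM, the count per 1000000 UMIs of the library. Each interval is a 95% Clopper-Pearson interval, for counting error alone. Since the assay counts molecules at their 3′ end, CPM were not divided by gene length. After filtering, the resistant TPF cinobufotalin, resistant TPF and FaDu cinobufotalin libraries held 7525, 4862 and 6123 cells with 134802289, 135176387 and 165847771 UMIs, at a median of 17867, 27920.5 and 24440 UMIs per cell. Between 9 and 13 kept cell barcodes were shared by any pair of libraries. All 11 epithelial markers reached 10 CPM as a mean of the 3 libraries, with summed levels of 4002, 5210 and 7226 CPM in that order of libraries. They included KRT8, KRT18 and KRT19, keratins of simple epithelium, so the sum does not measure squamous identity. None of 10 fibroblast, 10 immune, 7 endothelial and 5 erythroid markers reached a mean of 10 CPM. The libraries differed in MALAT1, a nuclear RNA, whose median share of a cell's UMIs was 0.731% and 0.795% in the resistant TPF cinobufotalin and resistant TPF libraries, against 0.0892% in the FaDu cinobufotalin library. No cell type in the libraries lacks the pump, so the share of UMIs that come from free RNA could not be measured, and doublets were not removed.

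ATP1B1 (ENSG00000143153) lies on chromosome 1, at 169105697 to 169132722 on the plus strand of GRCh38. ATP1B3 (ENSG00000069849) lies on chromosome 3, at 141876124 to 141926514, and ATP1B2 (ENSG00000129244) on chromosome 17, at 7646627 to 7657768, both on the plus strand. FXYD3 (ENSG00000089356) and FXYD5 (ENSG00000089327) are near neighbours on the plus strand of chromosome 19, at 35115879 to 35124324 and at 35154730 to 35169883. RefSeq gives 300 bases around the start of each gene (250 before it and 50 after, GRCh38.p14, plus strand). These are shown for the 4 members with more than a trace of RNA, to set the promoters of the 2 beta subunit genes beside those of the 2 FXYD genes. Capitals mark GC boxes (GGGCGG on either strand) and CCAAT boxes (CCAAT on either strand), which did not overlap.
ATP1B1, chr1:169106440-169106739: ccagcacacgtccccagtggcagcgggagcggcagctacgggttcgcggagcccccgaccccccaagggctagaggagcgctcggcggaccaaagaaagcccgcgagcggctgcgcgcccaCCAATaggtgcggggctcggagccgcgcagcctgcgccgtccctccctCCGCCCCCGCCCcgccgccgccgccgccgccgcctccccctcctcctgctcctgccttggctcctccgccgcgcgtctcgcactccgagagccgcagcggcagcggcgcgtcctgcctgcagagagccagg
ATP1B3, chr3:141876393-141876692: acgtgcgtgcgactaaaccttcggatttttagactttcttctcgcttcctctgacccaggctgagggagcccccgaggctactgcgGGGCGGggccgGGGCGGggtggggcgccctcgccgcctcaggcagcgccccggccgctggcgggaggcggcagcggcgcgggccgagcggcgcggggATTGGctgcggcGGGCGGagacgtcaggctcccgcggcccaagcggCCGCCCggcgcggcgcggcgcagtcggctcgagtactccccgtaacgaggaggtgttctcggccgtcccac
FXYD3, chr19:35117750-35118049: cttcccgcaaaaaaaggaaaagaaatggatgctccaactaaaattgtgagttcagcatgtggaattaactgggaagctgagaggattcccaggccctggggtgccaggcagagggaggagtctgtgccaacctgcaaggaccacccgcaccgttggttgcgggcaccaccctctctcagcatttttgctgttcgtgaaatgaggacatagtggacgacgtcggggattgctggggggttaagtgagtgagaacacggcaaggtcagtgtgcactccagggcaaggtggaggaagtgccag
FXYD5, chr19:35154485-35154784: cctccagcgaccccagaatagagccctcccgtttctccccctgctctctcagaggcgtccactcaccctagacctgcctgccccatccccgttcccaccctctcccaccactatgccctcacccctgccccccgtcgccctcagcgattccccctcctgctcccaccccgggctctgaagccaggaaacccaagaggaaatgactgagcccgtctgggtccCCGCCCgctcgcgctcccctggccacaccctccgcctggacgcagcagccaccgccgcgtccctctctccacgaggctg
Among the windows shown, those of ATP1B1 (77%) and ATP1B3 (75%) were richer in G and C than those of FXYD3 (54.7%) and FXYD5 (69%). The median of 35116 promoters was 58.7%. The observed over expected frequency of CpG was 0.949 and 1.07 in the ATP1B1 and ATP1B3 windows, and 0.420 and 0.660 in the FXYD3 and FXYD5 windows, against a median of 0.579. The GC box, held by 45.0% of promoters, occurred 2 times for ATP1B1, 4 times for ATP1B3, 1 time for FXYD5 and 0 times for FXYD3. The CCAAT box, held by 34.6%, occurred 1 time in each beta subunit window and in neither FXYD window. TATAAA, held by 11.5% of promoters, and the AP-1 motif TGANTCA, held by 7.71%, both searched on both strands, occurred in none of these windows. The annotated spans of ATP1B1, ATP1B3 and FXYD3 begin upstream of their windows, so other starts of these genes are not covered.

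ATP1B1 encodes the beta subunit found in most epithelia. Its level was 72.0 CPM (70.6 to 73.5) in the resistant TPF cinobufotalin library, 66.7 CPM (65.3 to 68.1) in the resistant TPF library and 64.0 CPM (62.8 to 65.2) in the FaDu cinobufotalin library. The levels lay close together, in steps small enough that only the depth of the libraries keeps the counting intervals apart. NME7, a gene on the opposite strand, overlaps the last 192 bases of ATP1B1. It was at 22.4, 26.1 and 22.9 CPM in the same order of libraries, and since the use of strand in counting is not given, reads could have been exchanged between the 2 genes.

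ATP1B3 encodes a beta subunit of wide distribution and had the highest level of the beta subunit genes in every library. It reached 165 CPM (163 to 167) in the resistant TPF cinobufotalin library, 174 CPM (172 to 176) in the resistant TPF library and 179 CPM (177 to 181) in the FaDu cinobufotalin library. Its antisense gene ATP1B3-AS1 stayed at or below 0.0668 CPM. ATP1B1 made up 30.4% (29.9 to 30.9) of the UMIs of ATP1B1 and ATP1B3 together in the resistant TPF cinobufotalin library, 27.7% (27.2 to 28.2) in the resistant TPF library and 26.3% (25.9 to 26.8) in the FaDu cinobufotalin library. ATP1B3 RNA was therefore the larger portion in all 3.

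ATP1B2, best known as an adhesion molecule of glia, was near 0. It had 54 UMIs in the resistant TPF cinobufotalin library, 54 in the resistant TPF library and 25 in the FaDu cinobufotalin library, or 0.401, 0.399 and 0.151 CPM. At most 2 UMIs of it were found in any kept cell.

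FXYD3, described in several carcinomas and able to bind the pump, had the largest difference between libraries among the 4 detected members in the sum over all kept cells. Its level was 52.9 CPM (51.7 to 54.1) in the resistant TPF cinobufotalin library and 54.6 CPM (53.4 to 55.9) in the resistant TPF library, against 89.1 CPM (87.6 to 90.5) in the FaDu cinobufotalin library. Both resistant libraries were low, and their intervals lay far from that of the FaDu cinobufotalin library.

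FXYD5, also called dysadherin, binds the pump and is known to weaken adhesion between epithelial cells. Its level was 130 CPM (129 to 132) in the resistant TPF cinobufotalin library and 136 CPM (134 to 138) in the resistant TPF library, against 179 CPM (177 to 181) in the FaDu cinobufotalin library. FXYD5 made up 71.2% and 71.3% of the UMIs of the 2 FXYD genes in the resistant TPF cinobufotalin and resistant TPF libraries, against 66.8% in the FaDu cinobufotalin library. In cells called G1 (cell cycle phases are described below) the share was lower, at 57.0% and 52.8% in those libraries. The FaDu cinobufotalin share was at least 59.4% in all 12 alternative sets or weightings of cells, so the order was reversed in G1 cells. FXYD3 and FXYD5 together gave 43.6% (43.2 to 44.0) and 44.2% (43.8 to 44.6) of the UMIs of the 4 detected members in those resistant libraries, against 52.4% (52.1 to 52.8) in the FaDu cinobufotalin library. The order depended on the MALAT1 share of the cells, in the bins described below. At 0.05% to 0.2% MALAT1 the shares were 53.0% and 52.0% in those resistant libraries, against 48.9% in the FaDu cinobufotalin library. At 1% to 2% they were 36.9% and 40.1%, against 42.6%.

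**Figure D1:**
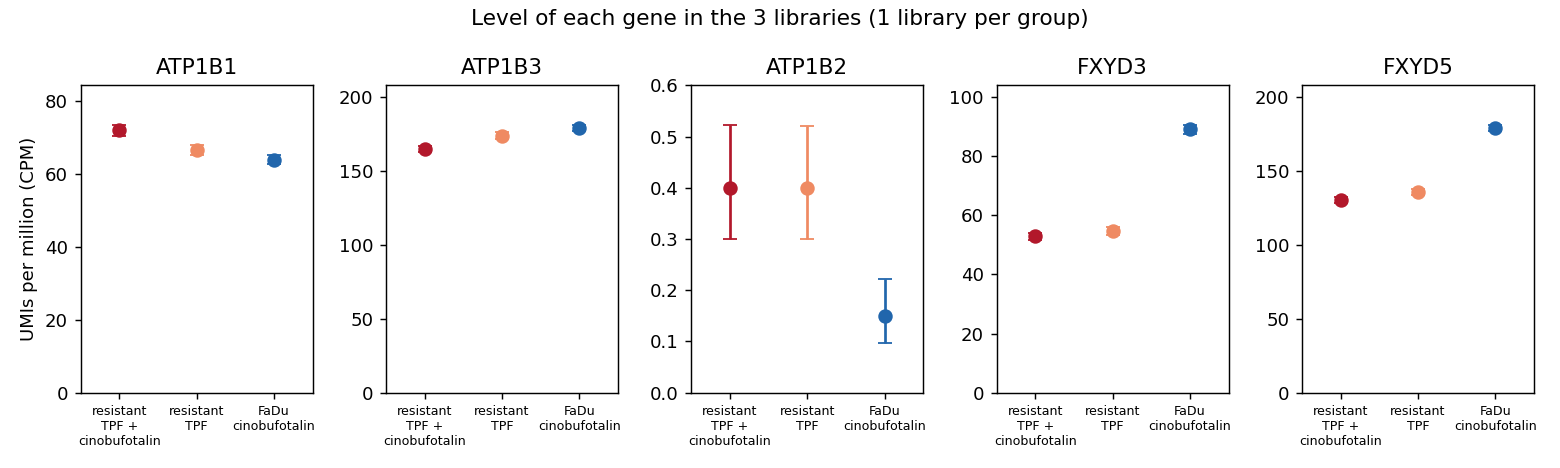
Level of each gene in CPM, with its 95% counting interval as bars, in the resistant TPF cinobufotalin, resistant TPF and FaDu cinobufotalin libraries, on axes that start at 0 and differ between genes. FXYD3 and FXYD5 sit lower in both resistant libraries, ATP1B1 and ATP1B3 change little, and ATP1B2 stays below 1 CPM.

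Of the 18 genes within 100 kb of the FXYD3 and FXYD5 pair, only FXYD3, FXYD5 and LSR reached a mean of 10 CPM. LSR, a receptor for lipoproteins that also sits at junctions where 3 cells meet, was at 60.1, 74.7 and 68.9 CPM in the resistant TPF cinobufotalin, resistant TPF and FaDu cinobufotalin libraries. FXYD1, FXYD7 and LGI4, which lie between the 2 FXYD genes, were at 0.229 CPM or less in every library. AC020907.6, a protein-coding gene on the same strand, overlaps 8419 bases of FXYD3 and was at 0.0519 CPM or less in every library. How reads that match both genes were counted is not given, so the FXYD3 counts could have been affected.

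Adding cinobufotalin to TPF in the resistant cells was set against TPF alone. No member was 1.5-fold higher or lower, where 0.0737% of the 8143 genes with a mean of at least 10 CPM were higher and 0.172% lower by that much. At 2-fold these shares were 0.0123% and 0.0123%, and again no member was among them. The log2 ratio of the resistant TPF cinobufotalin to the resistant TPF library was 0.11 (0.070 to 0.15) for ATP1B1, the only one of the 4 detected members above 0. It was -0.077 (-0.10 to -0.051) for ATP1B3, -0.047 (-0.095 to -0.00035) for FXYD3 and -0.058 (-0.088 to -0.028) for FXYD5, beside -0.058 for the median gene. The signs of FXYD3, FXYD5 and ATP1B1 were not stable, whereas ATP1B3 stayed below 0 in all 15 other sets of cells, weightings and scalings. FXYD3 turned with TMM scaling, to 0.00068, and in G2/M cells, to 0.0090, and FXYD5 turned in G1 cells, to 0.12. ATP1B1 turned to -0.038 in cells of 0.05% to 0.2% MALAT1, also limited to a depth of 10000 UMIs or more and a mitochondrial share of 2% to 8%, where FXYD5 was at 0.0027. Relative to the median gene FXYD3 was at 0.011, FXYD5 at 0.00013, ATP1B3 at -0.019 and ATP1B1 at 0.17, with 83.8% of genes below ATP1B1. ATP1B2 stood at 0.0040 (-0.57 to 0.58), an interval too wide to give a direction.

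The resistant TPF library was set against the FaDu cinobufotalin library, which differ in cell line and in both agents. FXYD3 was 1.63-fold lower, with a log2 ratio of -0.70 (-0.75 to -0.66), and was the only member past 1.5-fold. Among all genes 35% were higher by that much and 2.01% lower, and the median gene lay at 0.37. No member reached 2-fold, where 13.2% of genes were higher and 0.344% lower. Relative to the median gene FXYD3 was at -1.08, and 1.14% of genes had a lower ratio. FXYD5 was 1.32-fold lower, at -0.40 (-0.42 to -0.37), or -0.77 relative to the median gene. ATP1B1 stood at 0.060 (0.019 to 0.10) and ATP1B3 at -0.042 (-0.067 to -0.017), or -0.31 and -0.41 relative to the median gene. ATP1B1 turned to -0.51 with TMM scaling, under which the median gene lay at -0.20 and 3 members (ATP1B3, FXYD3 and FXYD5) were 1.5-fold lower. With that scaling 21.8% of all genes were 1.5-fold lower and 8.16% higher.

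The resistant TPF cinobufotalin library was set against the same FaDu cinobufotalin library, so the 2 comparisons share that library. FXYD3 was 1.68-fold lower, at -0.75 (-0.79 to -0.71), and again the only member past 1.5-fold, with 32.6% of genes higher and 4.14% lower. At 2-fold 13.3% of genes were higher and 0.761% lower, with no member among them. FXYD5 was 1.37-fold lower, at -0.46 (-0.48 to -0.43). Relative to the median gene, at 0.31, FXYD3 was at -1.07 and FXYD5 at -0.77. ATP1B1 stood at 0.17 (0.13 to 0.21) and turned to -0.35 with TMM scaling, and ATP1B3 stood at -0.12 (-0.14 to -0.094). With TMM scaling 25.3% of all genes were 1.5-fold lower and 9.63% higher, the same 3 members among the lower ones. ATP1B2 was at 1.41 in both comparisons with the FaDu cinobufotalin library, from 54 against 25 UMIs, and was too low to be counted.

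**Figure D2:**
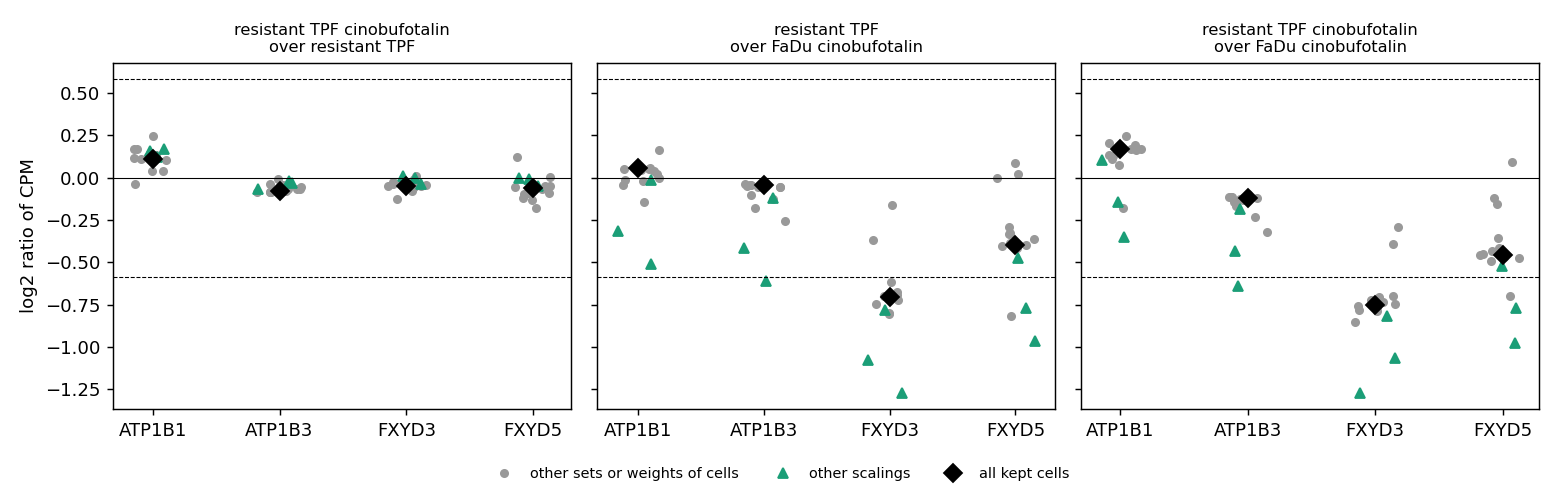
Log2 ratio of CPM for the 4 detected genes in each pair of libraries, from all kept cells (diamonds), from other sets or weights of cells (grey points) and with other scalings (green triangles), with dashed lines at 1.5-fold. FXYD3 is below 0 at every point of both comparisons with the FaDu cinobufotalin library, from -1.27 to -0.16, whereas ATP1B1 falls on either side of 0.

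Since MALAT1 differed between the libraries, the members were also measured in cells binned by their MALAT1 share. These cells were also limited to a depth of 10000 UMIs or more and a mitochondrial share of 2% to 8%. Of the 5 bins, 3 were chosen after the levels were seen. FXYD5 was lower the more MALAT1 a cell held, in each library. It was at 178 and 177 CPM in the resistant TPF cinobufotalin and resistant TPF libraries at 0.05% to 0.2% MALAT1, against 167 CPM in the FaDu cinobufotalin library. At 1% to 2% MALAT1 it was at 106 and 120 CPM in those resistant libraries, against 118 CPM in the FaDu cinobufotalin library. The FXYD5 levels of the libraries lay closer together in these sets of cells than in all kept cells. The log2 ratio of the resistant TPF library over the FaDu cinobufotalin library ran from 0.017 to 0.13 over the 5 bins. For the resistant TPF cinobufotalin library it ran from -0.16 to 0.14. Relative to the median gene of the same cells, FXYD5 was at -0.092 and -0.21 for the resistant TPF library at 0.05% to 0.2% and 1% to 2% MALAT1, and at 0.0075 and -0.38 for the resistant TPF cinobufotalin library.

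FXYD3 behaved otherwise. At 0.05% to 0.2% MALAT1 it was at 57.2 and 58.1 CPM in the resistant TPF cinobufotalin and resistant TPF libraries, against 75.2 CPM in the FaDu cinobufotalin library. At 1% to 2% it was at 49.6 and 49.95 CPM in those resistant libraries, against 80.8 CPM in the FaDu cinobufotalin library. It was lower in both resistant libraries in each of the 5 bins, with log2 ratios of -0.80 to -0.37 for the resistant TPF library and -0.83 to -0.33 for the resistant TPF cinobufotalin library, each relative to the FaDu cinobufotalin library. At 0.05% to 0.2% MALAT1 neither pair passed 1.5-fold, nor did the resistant TPF cinobufotalin library under 0.05%. The bin under 0.05% rested on 233 and 75 cells of the resistant TPF cinobufotalin and resistant TPF libraries, against 1158 cells of the FaDu cinobufotalin library. ATP1B3 was at 133 CPM under 0.05% and 185 CPM at 1% to 2% MALAT1 in the resistant TPF cinobufotalin library. The same 2 bins gave 183 and 186 CPM in the resistant TPF library, and 175 and 200 CPM in the FaDu cinobufotalin library.

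**Figure D3:**
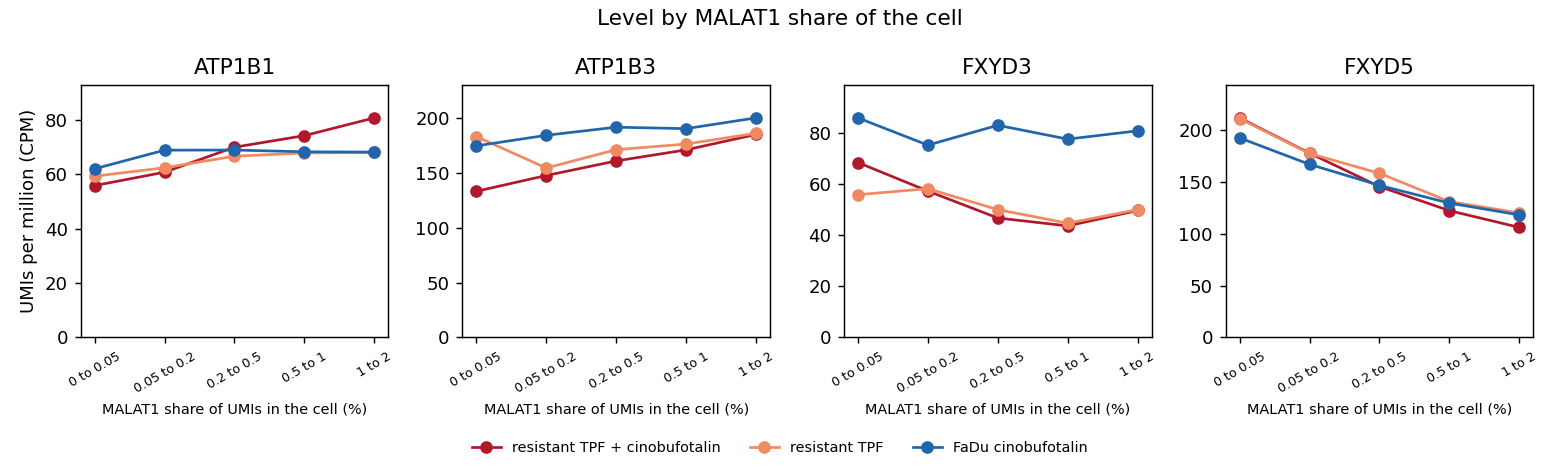
Level of the 4 detected genes in CPM (axes from 0) in cells with 2% to 8% mitochondrial UMIs and at least 10000 UMIs, by the MALAT1 share of the cell, with 1 line per library. The FXYD5 lines fall together from left to right, and the FXYD3 line of the FaDu cinobufotalin library runs above both resistant libraries throughout.

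FXYD5 and ATP1B1 also moved with the UMI count of a cell. FXYD5 was higher in deep cells, at 93.2 CPM in the 25% of cells with the fewest UMIs and 162 CPM in the 25% with the most in the resistant TPF cinobufotalin library. The same bottom and top groups of cells gave 101 and 163 CPM in the resistant TPF library, and 137 and 212 CPM in the FaDu cinobufotalin library. ATP1B1 ran the other way, with 81.2 CPM in the bottom and 65.3 CPM in the top group of the resistant TPF cinobufotalin library, 80.2 and 61.5 CPM in the resistant TPF library, and 74.2 and 57.2 CPM in the FaDu cinobufotalin library. ATP1B3 and FXYD3 neither rose nor fell steadily over the 4 such groups of cells in any library. This split by depth was chosen after the levels were seen. The part of cell size and RNA quality in these differences was not tested.

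Cells were given a cell cycle phase from S and G2/M gene lists after thinning each cell to 5000 UMIs. FXYD3 was highest in cells called G1 in every library. It was at 85.7 CPM in G1 and 48.5 CPM in S cells of the resistant TPF cinobufotalin library, and at 93.5 CPM in G1 and 49.8 CPM in S cells of the resistant TPF library. The step was smaller in the FaDu cinobufotalin library, at 105 CPM in G1 and 83.5 CPM in S cells, and G2/M cells lay close to S cells in all 3 libraries. The share of thinned cells with an FXYD3 UMI had the same order, at 31.8% (28.8 to 34.9) in G1 and 20.6% (19.2 to 22.0) in S for the resistant TPF cinobufotalin library. It was 31.3% and 19.9% for the resistant TPF library, and 37.3% and 30.3% for the FaDu cinobufotalin library.

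FXYD3 differed more between the libraries in S and G2/M cells than in G1 cells. Among S cells the log2 ratio over the FaDu cinobufotalin library was -0.78 for the resistant TPF cinobufotalin library and -0.75 for the resistant TPF library. Among G2/M cells these were -0.79 and -0.80, and among G1 cells only -0.29 and -0.16. That difference between phases was not tested. It remained in cells of 0.2% to 1% MALAT1, where G1 cells gave -0.24 and -0.22 and S cells -0.86 and -0.78 for the same pairs.

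FXYD5 in G1 cells was at 114 and 104 CPM in the resistant TPF cinobufotalin and resistant TPF libraries, against 184 CPM in the FaDu cinobufotalin library. Among G1 cells, where the share of all genes was not counted, FXYD5 was thus the member past 1.5-fold. MALAT1 moved with it, at a median of 1.26% and 1.74% of UMIs in those resistant G1 cells, against 0.0821% in the FaDu cinobufotalin G1 cells. In G1 cells of 0.2% to 1% MALAT1, FXYD5 was at 126 and 144 CPM in the resistant TPF cinobufotalin and resistant TPF libraries, against 140 CPM in the FaDu cinobufotalin library. Cells called G1 made up 13.4% and 14.9% of the resistant TPF cinobufotalin and resistant TPF libraries, against 26.4% of the FaDu cinobufotalin library. Over all phases and libraries ATP1B1 ranged from 62.7 to 72.2 CPM and ATP1B3 from 143 to 187 CPM.

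**Figure D4:**
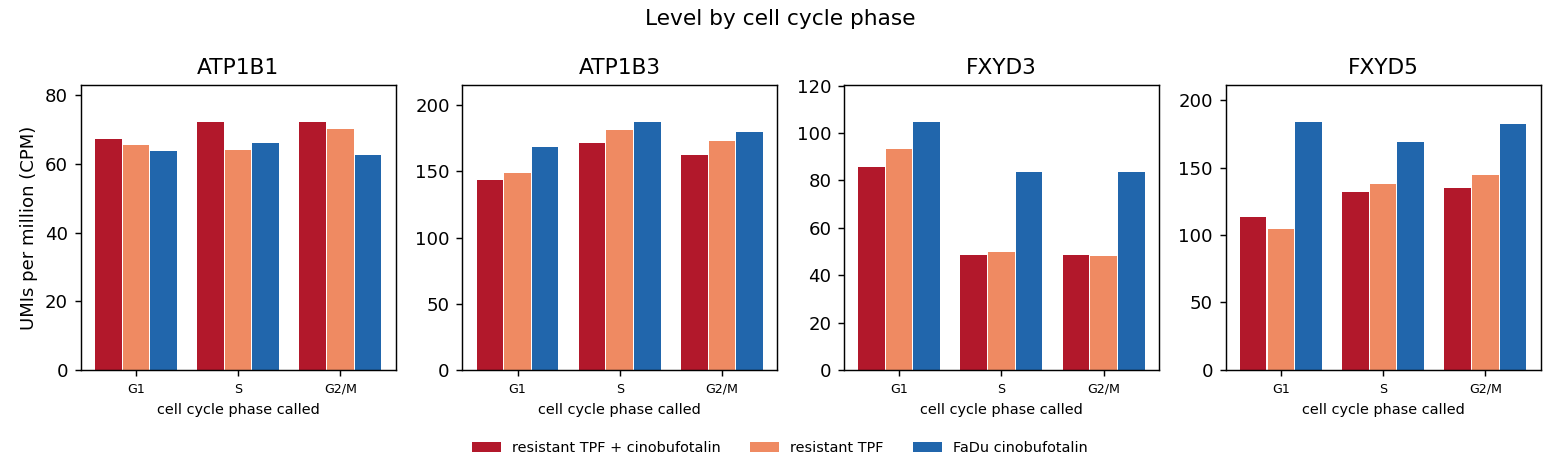
Level of the 4 detected genes in CPM (bars from 0) in cells called G1, S and G2/M, with 1 bar per library and no error bars. FXYD3 is highest in G1 in each library, and its bars differ most between libraries in S and G2/M.

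At the depth of these libraries most cells held few UMIs of a member. An ATP1B3 UMI was found in 85.4%, 93.2% and 94.2% of cells of the resistant TPF cinobufotalin, resistant TPF and FaDu cinobufotalin libraries, and an FXYD3 UMI in 48.8%, 61.9% and 77.8%. At 5000 UMIs per cell, which left out 571, 205 and 144 shallower cells in that order, an ATP1B3 UMI remained in 53.9%, 57.2% and 58.1% of cells. For FXYD5 these shares were 41.4% (40.2 to 42.5) and 43.0% (41.5 to 44.4) in the resistant TPF cinobufotalin and resistant TPF libraries, against 52.3% (51.1 to 53.6) in the FaDu cinobufotalin library. For FXYD3 they were 21.8% (20.8 to 22.8) and 22.4% (21.2 to 23.6) in those resistant libraries, against 32.7% (31.5 to 33.9). ATP1B1 was found in 29.6%, 27.3% and 26.9% of cells in the order given, and ATP1B2 in 0.230%, 0.258% and 0.134%. The resistant libraries were low for FXYD3 and FXYD5 at equal depth too.

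FXYD3, FXYD5 and ATP1B1 were spread somewhat more unevenly over cells than the median gene of like level in every library. The FXYD3 variance over mean was 1.196, 1.29 and 1.23 in the resistant TPF cinobufotalin, resistant TPF and FaDu cinobufotalin libraries, against medians of 1.09, 1.08 and 1.10 among the 200 genes nearest in level, of which 29, 13 and 29 were at least as high. FXYD5 was at 1.23, 1.33 and 1.26 against 1.16, 1.148 and 1.14, and ATP1B1 at 1.151, 1.13 and 1.17 against 1.10, 1.08 and 1.08. ATP1B3 lay below such medians, at 1.14, 1.09 and 1.09 against 1.18, 1.17 and 1.16. None of the 4 detected members was found in 15.7% and 13.8% of thinned cells of the resistant TPF cinobufotalin and resistant TPF libraries, against 10.7% of the FaDu cinobufotalin library, and all 4 were found in 1.42% and 1.76%, against 2.86%. Pairs of members shared cells about as often as the product of their shares, with ratios of 0.951 to 1.11 over 6 pairs and 3 libraries. The highest was FXYD3 with FXYD5 in the resistant TPF cinobufotalin library, and no pair of members had a Pearson correlation above 0.058 over cells.

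**Figure D5:**
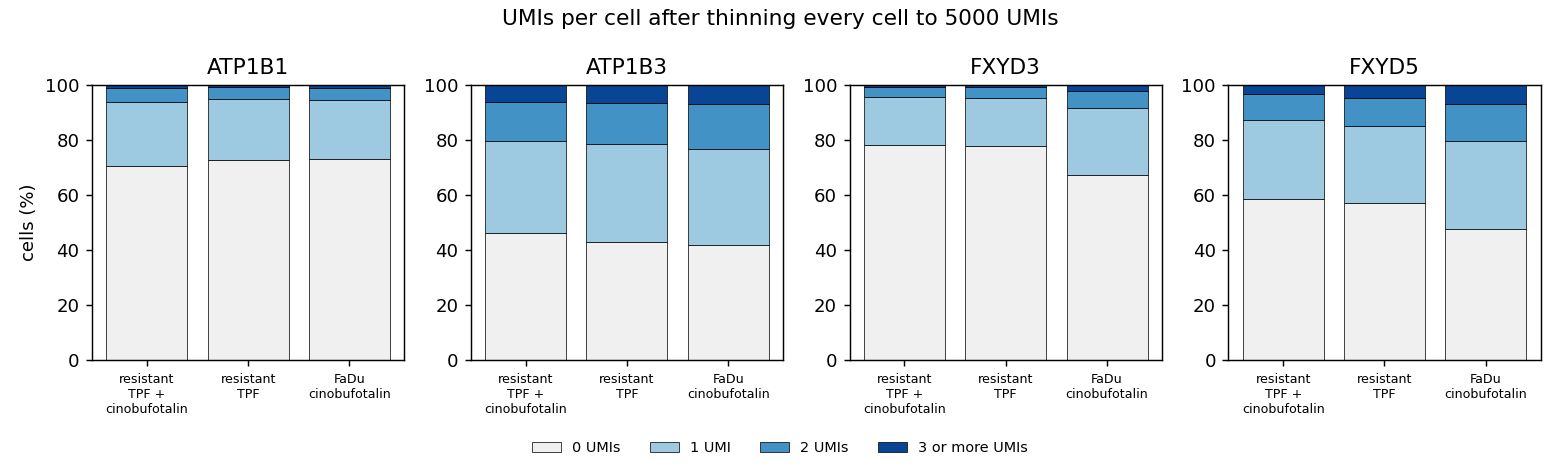
Share of cells with 0, 1, 2 and 3 or more UMIs of each detected gene after thinning every cell to 5000 UMIs, with 1 stacked bar per library. The pale segment, cells with 0 UMIs, is taller in both resistant libraries for FXYD3 and FXYD5 and of like height for ATP1B1.

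The genes most like each member over cells were ranked by the mean within-library Pearson correlation of log counts per 10000 in the thinned cells, among 5440 genes. These values describe cells that share a library and a depth, and carry no test. FXYD3 was most like 4 small calcium-binding S100 proteins, S100A2 (0.17), S100A11 (0.17), S100A10 (0.15) and S100A6 (0.13), and GSTP1 (0.13), a glutathione transferase, where the 99th percentile of genes was 0.064. FXYD5 was most like TMSB10 (0.20) and PFN1 (0.18), which bind actin monomers, the galectin gene LGALS1 (0.17), the metallothionein gene MT2A (0.16) and the proteasome subunit gene PSMA7 (0.16), with a 99th percentile of 0.093. All 10 of these genes had a mean level of 1345 to 9940 CPM, well above the members. For ATP1B1 (SAA1, PLAU, EXT1, LCN2 and GBP1) and ATP1B3 (ADK, EXT1, DIAPH3, RIMS2 and HSP90AA1) the highest mean was 0.070, too weak to describe a pattern.

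The 13 relatives of the beta subunit, FXYD, proton pump and NKAIN families that were looked at had little RNA. Of these 13, among them ATP1B4, the remaining FXYD genes, the gastric and colonic proton pump genes and the NKAIN genes, named for their interaction with the pump, 0 reached 10 CPM. The highest was NKAIN2, at 1.254 CPM in the resistant TPF cinobufotalin library. FXYD6 was the highest further FXYD gene, at 0.542 and 0.577 CPM in the resistant TPF cinobufotalin and resistant TPF libraries, against 0.458 CPM in the FaDu cinobufotalin library. FXYD3 and FXYD5 were thus the FXYD genes with appreciable RNA in these cells.

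Genes that work beside the pump were taken from 7 further lists, and only their genes with a mean of at least 10 CPM were counted. Between the resistant TPF cinobufotalin and resistant TPF libraries, 0 counted genes of any list were 1.5-fold higher or lower, as with the members. Among all genes over that limit only 0.0737% were higher and 0.172% lower in that pair. The counts for the resistant TPF library over the FaDu cinobufotalin library stand beside 35% of all genes higher and 2.01% lower. In that pair 4 of 12 carriers that spend the sodium gradient were higher and 0 lower, with a median log2 ratio of 0.39 beside 0.37 for all genes. SLC12A2, the sodium, potassium and chloride cotransporter, was at 29.3 CPM in the resistant TPF library and 11.99 CPM in the FaDu cinobufotalin library. SLC1A5, the glutamine carrier, was at 48.5 CPM in the resistant TPF library and 53.2 CPM in the FaDu cinobufotalin library, a log2 ratio of -0.13. Of 6 potassium and chloride exit genes 3 were higher and 0 lower, with LRRC8B, of the volume-regulated anion channel, at 0.92 and LRRC8A, of the same channel, at -0.31.

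Of 13 pump regulators and scaffold genes 7 were higher and 1 lower in the resistant TPF library than in the FaDu cinobufotalin library, with a median of 0.68. PRKCA, a protein kinase C, was at 43.9 CPM in the resistant TPF library and 14.8 CPM in the FaDu cinobufotalin library. CAV1, the caveolin that holds pumps in membrane pits with SRC, was the 1 lower gene, at 311 CPM in the resistant TPF library and 654 CPM in the FaDu cinobufotalin library, and at 332 CPM in the resistant TPF cinobufotalin library. Its log2 ratios over the FaDu cinobufotalin library were -1.07 for the resistant TPF library and -0.98 for the resistant TPF cinobufotalin library. SRC itself was at 12.3, 13.7 and 13.1 CPM in the resistant TPF cinobufotalin, resistant TPF and FaDu cinobufotalin libraries.

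Of 9 other P-type ATPases 7 were higher in the resistant TPF library and 0 lower, with a median of 0.68. ATP2B1, a calcium pump of the plasma membrane, was at 53.9 CPM in the resistant TPF library and 24.5 CPM in the FaDu cinobufotalin library. Among 16 cell junction genes 5 were higher and 0 lower, beside 35% and 2.01% of all genes, with the desmosomal DSC2 at a log2 ratio of 1.61, the tight junction scaffold TJP1 at 1.30 and the claudin CLDN4 at -0.36. In the resistant TPF cinobufotalin library relative to the FaDu cinobufotalin library, 6 junction genes were higher and 2 lower, CLDN4 at -0.70 and the plakophilin PKP3 at -0.82.

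Of 17 genes of folding and glycosylation in the endoplasmic reticulum, through which beta subunits pass, 4 were higher and 0 lower in the resistant TPF library. HSPA5, the chaperone BiP, was at 221 CPM in the resistant TPF library and 98.4 CPM in the FaDu cinobufotalin library. Of 11 early response genes 5 were higher and 0 lower, with JUN at a log2 ratio of 2.01 and IER3 at -0.47. In the resistant TPF cinobufotalin library relative to the FaDu cinobufotalin library, 5 carriers, 3 exit genes, 7 regulators, 8 P-type ATPases, 6 folding genes and 7 early response genes were higher, and of these lists only CAV1 and IER3 were lower. Among all genes 32.6% were higher and 4.14% lower in that pair. The 6 of 17 folding genes lie near that share of higher genes, and the other counts lie above it, most of all the 8 of 9 P-type ATPases. These counts depended on the scaling. With TMM factors 3 carriers, 0 exit genes, 2 regulators and 3 P-type ATPases were higher in that pair. So were 2 junction genes, 1 folding gene and 2 early response genes, beside 9.63% of all genes. Lower were 2 carriers, 1 exit gene, 2 regulators, 0 P-type ATPases, 4 junction genes, 1 folding gene and 1 early response gene, beside 25.3%. With TMM scaling the higher counts of the resistant TPF library dropped to 1 carrier, 0 exit genes, 2 regulators, 1 P-type ATPase, 2 junction genes, 1 folding gene and 3 early response genes. The share of all genes 1.5-fold higher dropped too, from 35% to 8.16%. The lower counts became 1 carrier, 1 exit gene, 1 regulator, 0 P-type ATPases, 5 junction genes, 1 folding gene and 1 early response gene. The share of all genes 1.5-fold lower rose from 2.01% to 21.8%. SLC12A2, PRKCA, ATP2B1, HSPA5, JUN and CAV1 kept their direction under that scaling. The lists were not tested against other genes.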

How the data were processed

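The 3 samples, 1 per group, were profiled as single cells with 10x 3' kits of version 3.1. The deposited values are raw UMI counts for each gene and barcode, made by the authors with Cell Ranger 7.0 on hg38, per the submitters' processing notes. The sources used here do not give the annotation or the use of intronic reads and of strand. Gene spans are those of GENCODE 29, which held all 58735 IDs. Promoters are from RefSeq.

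Cells needed 1000 UMIs, 500 genes and no more than 20% mitochondrial UMIs. UMIs were summed per library, scaled to CPM and compared as log2 ratios with Clopper-Pearson intervals (Python 3.11.15, numpy 2.4.6, scipy 1.17.1, pandas 2.3.3). A gene was counted from a mean of 10 CPM and a 1.5-fold difference. Cell cycle scores came from scanpy 1.11.5 (anndata 0.12.19). TMM factors came from edgeR 4.0.16 in R 4.3.3, and no edgeR test was run. The members and lists were chosen with earlier results of these data known. Members were always named, with the 5 genes most like each, some overlapping or adjacent genes, and genes from the 2 highest and 2 lowest ratios of each list. LSR, NKAIN2, FXYD1 and FXYD6 were chosen after their values were seen. The counting was tested on simulated data and recovered 150 of 150 genes changed 2-fold or 4-fold in each pair. The simulation drew Poisson counts at the real library sizes, without variation between cells or replicate libraries, so it checks the calculation alone. Free RNA was not corrected for. The catalytic alpha subunits are not reported here. Alternatives covered cell filters, depth, phase, scaling, MALAT1 and thresholds.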

Additional observations from a re-analysis of the deposited data

Results flagged for a closer look

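Barcodes over 20% mitochondrial UMIs, left out of all comparisons, still held member UMIs, which is what drew attention to them. There were 1179, 1065 and 689 such barcodes in the resistant TPF cinobufotalin, resistant TPF and FaDu cinobufotalin libraries, and levels are given as CPM of UMIs that are not mitochondrial. ATP1B2, near 0 in kept cells, was at 7.99, 10.6 and 10.3 CPM in that order, from 9, 13 and 5 UMIs. ATP1B1 was at 114, 114 and 105 CPM and ATP1B3 at 239.6, 205 and 273 CPM. The FXYD genes were low, FXYD3 at 24.0, 23.5 and 24.8 CPM and FXYD5 at 66.6, 67.4 and 88.9 CPM, with the lowest FXYD3 count at 12 UMIs.

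Over the 3 libraries together, these barcodes were 29.9-fold higher in ATP1B2 than kept cells (19.0 to 45.6), from 27 UMIs. Among the 12564 genes with at least 20 UMIs in these barcodes, the median was 1.94-fold and 6.65% of genes were at least 10-fold higher. Genes low in kept cells entered that set only if higher in these barcodes, as ATP1B2 was. The median and the share are therefore no neutral background. FXYD3 was 2.92-fold lower and FXYD5 2.21-fold lower, and ATP1B1 was 1.60-fold and ATP1B3 1.28-fold higher. The barcodes had a median of 1867, 2753 and 1498 UMIs, of which 72.8%, 80.9% and 87.7% were mitochondrial, in the same order of libraries. What these barcodes hold was not tested.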

How the results depend on the processing

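The 1 member 1.5-fold lower than in the FaDu cinobufotalin library became 3 with TMM factors (ATP1B3, FXYD3 and FXYD5), 2 when centred on the median gene, 2 at a looser fold limit, 0 at a 2-fold limit and 0 in cells limited at once in MALAT1 (0.05% to 0.2%), mitochondrial share (2% to 8%) and depth (10000 UMIs or more), alike for the resistant TPF cinobufotalin and resistant TPF libraries. In cells called G1 the count stayed at 1, but the member was FXYD5, with FXYD3 at -0.29 and -0.16 for those 2 libraries. Relative to the median gene, 13.3% and 11.3% of all genes were 1.5-fold lower in those libraries, and with TMM factors 25.3% and 21.8%. At the 2-fold limit 0.761% and 0.344% of all genes were lower. The share of all genes was not counted at the looser limit, in the cells limited in MALAT1 or in G1 cells. Only FXYD3, in both comparisons with the FaDu cinobufotalin library, had a call that could be reversed, and it was not reversed. The counts of higher members, and both counts between the resistant libraries, were 0 in all 19 alternatives each. FXYD3 kept its sign in 15 of 15 alternatives in both comparisons with the FaDu cinobufotalin library, FXYD5 in 14 and 12, and ATP1B1 in 12 and 7, again for the resistant TPF cinobufotalin and then the resistant TPF library. Between the resistant libraries ATP1B3 kept its sign in 15 of 15, ATP1B1 in 14, and FXYD3 and FXYD5 in 12 each. No paired analysis was possible because each group was 1 library and the labels carry no replicate numbers. Depth limits ATP1B2, with 25 to 54 UMIs per library and no ratio for the resistant TPF cinobufotalin library in that set of cells, and intervals cover counting error only.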
